A study of Mus musculus with 12 samples.

Results

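RNA helicases and splicing factors were followed in the lung of A/J mice as 80 genes of the 8251 that the array names, read by 113 of its 12422 probe sets. A probe set, the group of short probes that reads 1 transcript, was a member if its annotation gave 1 gene whose symbol begins with Ddx, Dhx, Hnrnp, Sf3, Srsf, Snrp or Prpf, or was Rrp1b or Snw1; the X- and Y-linked pair Ddx3x and Ddx3y was left out. The 7 families came from gene symbols, but they were picked with earlier results of these arrays known, and Rrp1b and Snw1 were added for their own values at the time points compared here. Rrp1b and Snw1 are therefore described without a test. Of the members, 95 probe sets for 75 genes were bright enough to be used, and the other 18 had means from 4.53 to 61.5, under the level of about 108 below which probe sets were left out. Families differed in size, with 28 usable Ddx, 19 Hnrnp, 14 Srsf, 10 Sf3, 9 Snrp, 7 Prpf and 6 Dhx probe sets. The antiviral RNA sensors Rigi and Dhx58 were not analysed here.

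A/J is an inbred strain in which lung tumours arise readily, and all 12 samples were saline-injected controls that were also described as untreated. Of these, 7 were taken 42 weeks after the injection (LZ22 to LZ25 and LZ61 to LZ63) and 5 were taken 24 to 26 weeks after it (AJ1, AJ2, AJ4, LZ2 and LZ3). One MG_U74Av2 array was run for each, and its MAS5 signal, a linear brightness in arbitrary units, is the value given throughout. The labels give no sex and no age at injection, and they do not say that each sample is a separate mouse, so each p-value rests on the scatter of these samples, which may be partly technical.

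Arrays had been scaled to 1 level, a trimmed mean signal of 500.3. They were run on 4 days that match the 4 ranges of titles (AJ, LZ2 to 3, LZ22 to 25, LZ61 to 63), and each day held 1 time point. Lung markers were among the brightest signals, summing over 6 genes to between 86477 and 130832 at 42 weeks and between 68519 and 124367 at 24 to 26 weeks, with the AJ arrays at 68519 to 73781. LZ63 stood apart in muscle and squamous epithelium: its 4 skeletal muscle markers summed to 35053 and its 3 squamous markers to 32549, against highest sums of 1555.5 and 885.7 on any other array. Cardiac markers summed to 2030.9 on LZ24 and 2122.9 on LZ22, and to at least 8055 on the other arrays. The ratio of 3′ to 5′ signal for Actb, a sign of RNA integrity, was 1.24 to 1.28 on the AJ arrays and at most 1.19 elsewhere. The same ratio for Gapdh did not set them apart as high, at 0.767 to 0.805 on the AJ arrays and 0.766 to 1.04 elsewhere.

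Splicing removes introns in steps that these families share out. Small nuclear ribonucleoproteins, whose proteins the Snrp genes encode, recognise the ends of introns, the Sf3 complexes hold the branch point, and the Prpf proteins build and activate the spliceosome. RNA helicases of the DEAD box (Ddx) and DEAH box (Dhx) types spend ATP to unwind or remodel RNA at these steps and in ribosome assembly, translation and decay. SR proteins (Srsf) mostly favour the use of the exons they bind, while heterogeneous nuclear ribonucleoproteins (Hnrnp) coat new transcripts and often oppose them, and many of these proteins limit their own messages through splicing that leads to decay.

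Rrp1b encodes a nucleolar protein of ribosome assembly that in human cells also binds splicing factors. Its signals at 42 weeks were 165.7, 191.9, 136.7, 171.0, 155.3, 186.2 and 145.1 on LZ22 to LZ25 and LZ61 to LZ63, against 270.9, 342.3, 291.1, 275.2 and 301.8 on AJ1, AJ2, AJ4, LZ2 and LZ3 at 24 to 26 weeks. Every array at 42 weeks lay below every array at 24 to 26 weeks. The mean was 165 ± 20.4 at 42 weeks (SD, n = 7) and 296 ± 28.6 at 24 to 26 weeks (SD, n = 5), a log2 difference of -0.85. The 42-week mean stood at -0.88 against the AJ arrays and at -0.82 against LZ2 and LZ3, values that share the 42-week arrays.

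Snw1 encodes a core spliceosome protein that also serves as a transcription coregulator for Notch and the vitamin D receptor. Its signals ran the other way, with 601.2, 530.1, 584.6, 567.9, 594.7, 477.3 and 446.4 at 42 weeks, against 451.0, 206.6, 241.6, 350.9 and 304.2 at 24 to 26 weeks. The groups overlapped only through LZ63, which at 446.4 lay just below AJ1 at 451.0. Means were 543 ± 60.9 at 42 weeks (SD, n = 7) and 311 ± 96.1 at 24 to 26 weeks (SD, n = 5), giving a log2 difference of 0.85. A further Snw1 probe set was too dim to use, with means of 29.1 and 34.3. In lung tissue, fewer cells that express a gene and less RNA per cell cannot be told apart, and this holds for each value here.

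**Figure D1:**
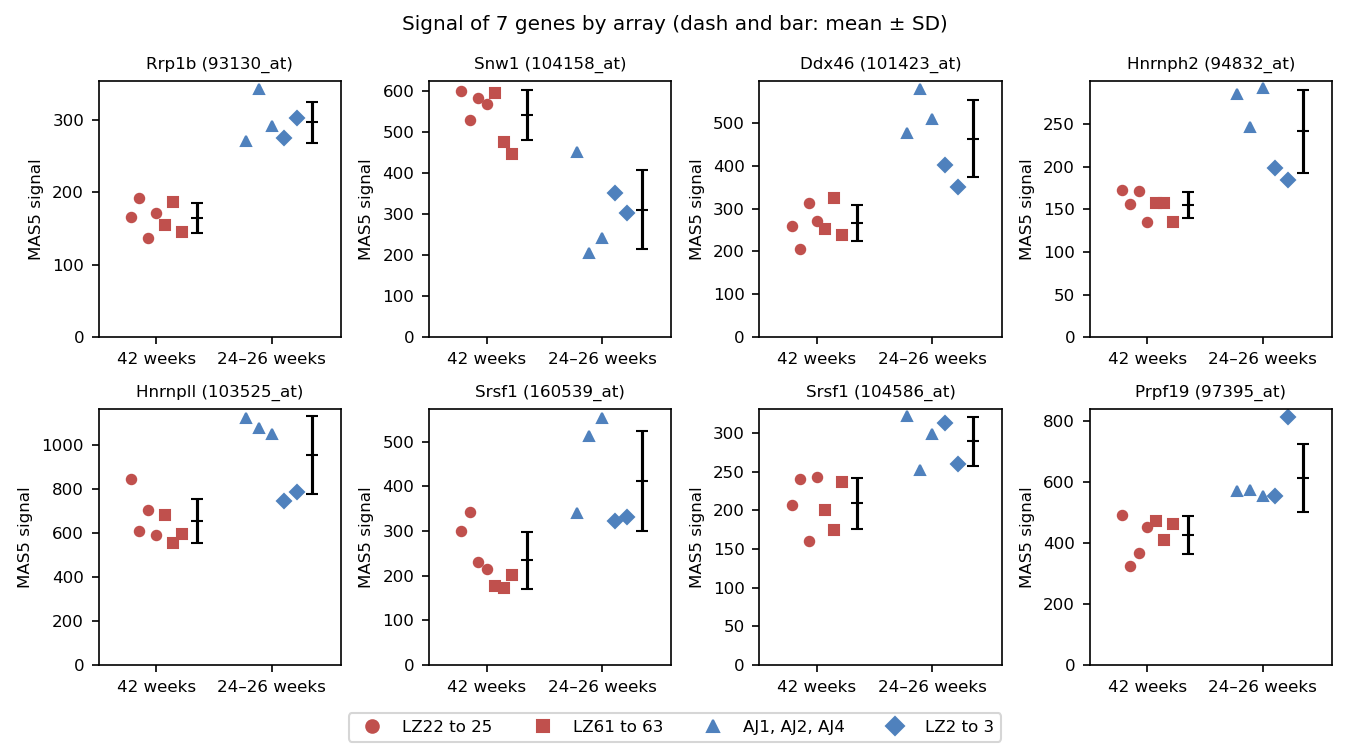
MAS5 signal (y axis, from 0) of 7 genes on each array, with arrays at 42 weeks on the left of each panel and arrays at 24 to 26 weeks on the right; symbols mark the range of titles, and the dash and bar are the group mean and SD. Rrp1b, Ddx46, Hnrnph2, Prpf19 and the Srsf1 probe set 104586_at show groups that do not overlap, while Hnrnpll and the Srsf1 probe set 160539_at overlap.

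The 7 families were compared between the time points with limma across all 7453 usable probe sets. None of their 93 probe sets passed 5% false discovery, where 6 of 7453 probe sets did (0.0805%). At an unadjusted p under 0.05, 24 of the 93 were lower at 42 weeks (25.8%, against 9.67% of all probe sets) and 3 were higher (3.23%, against 5.04%). In an exact permutation test per probe set over the 792 splits of the arrays, 25 of 93 had an unadjusted p under 0.05 (26.9%, against 13.8% of all probe sets), and the smallest adjusted p that this test gave was 0.162. Its smallest unadjusted p, 0.00126, is the lowest that 792 splits allow. After adjustment over 7453 none could pass unless many probe sets sat at that floor. The splits also take no account of run day. With run day as a random block in limma, 0 of the 93 and 1 of 7453 (0.0134%) passed. The count was 15 of 93 with array weights, where 7.38% of all probe sets passed, and 12 of 92 with the AJ arrays alone as the earlier group, where 5.94% did. Under title prefix as a block it was 0 of 93, where 4 of 7453 passed (0.0537%). That setting compares 42 weeks with LZ2 and LZ3. As the families were picked with results known, these counts describe them and support nothing further.

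**Figure D2:**
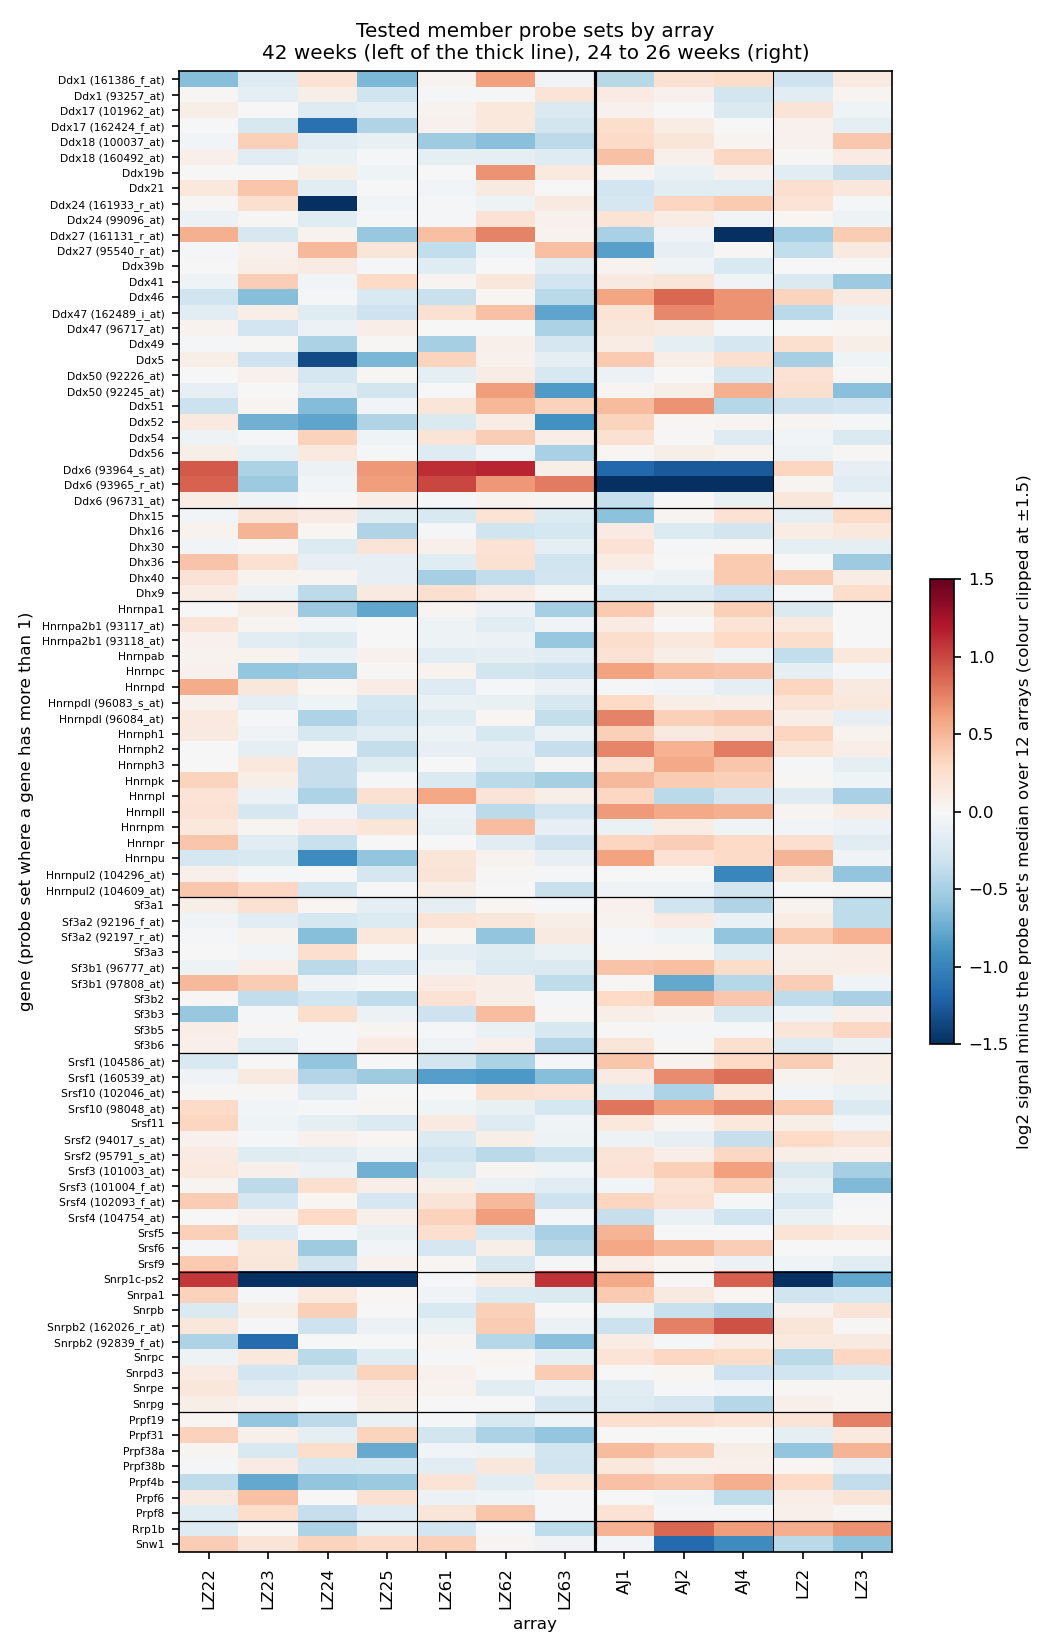
Tested member probe sets (rows, grouped by family) on the 12 arrays (columns), coloured by log2 signal minus the median of that probe set over the 12 arrays, with colours clipped at ±1.5. The columns at 42 weeks stand left of the thick line; most Hnrnp rows are red on the AJ arrays, and 2 Ddx6 rows are dark blue there.

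Groups did not overlap in 6 of the 93 probe sets (6.45%), all lower at 42 weeks, where 1.18% of all probe sets were separated in that direction and 1.5% in either. They belong to Ddx46, Hnrnph2, Hnrnpdl, Prpf19, Sf3b1 and Srsf1, genes of 5 families. Ddx46, a helicase that remodels the U2 particle when the branch point is chosen, had the smallest adjusted p of the families. Its signals at 42 weeks ran from 204.6 to 323.7 with a median of 258.8, against 477.3, 577.9, 509.2, 401.8 and 349.4 at 24 to 26 weeks. Both LZ2 and LZ3 sat nearer to the later lungs than the AJ arrays did. The log2 difference was -0.79 (standard error 0.15, limma adjusted p = 0.0569), and it was -0.98 against the AJ arrays and -0.51 against LZ2 and LZ3. With run day as a block the limma adjusted p was 0.418, and with title prefix (AJ or LZ) as a block it was 0.667. Leaving out LZ2, LZ3 or LZ62 gave 0.0336, 0.0288 or 0.0349, past the threshold. Leaving out AJ1, AJ2 or AJ4 gave 0.148, 0.182 or 0.195, further from it.

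Hnrnph2, an X-linked hnRNP that binds runs of G in transcripts, read 134.5 to 173.0 with a median of 157.6 at 42 weeks, against 285.3, 246.7, 291.8, 198.0 and 184.6 at 24 to 26 weeks. All 7 later arrays were below the lowest earlier one, LZ3, by a narrow margin, and the AJ arrays were the highest. The log2 difference was -0.62 (standard error 0.15, limma adjusted p = 0.0978). Prpf19, the ubiquitin ligase at the centre of the complex that activates the spliceosome, read 323.0 to 491.7 with a median of 450.5 at 42 weeks, against 569.6, 571.6, 552.9, 552.7 and 812.4 at 24 to 26 weeks. Here LZ3 was the highest array and not an AJ array. The log2 difference of Prpf19 was -0.52 (standard error 0.13, limma adjusted p = 0.117), with -0.43 against the AJ arrays and -0.67 against LZ2 and LZ3.

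Promoters of these leading genes are shown because the genes shared a direction across families; they are RefSeq windows of the GRCm38.p6 build, from 250 bases before to 50 after a gene's start, read 5′ to 3′. Rrp1b and Prpf19 have 2 windows each in that table, and the first is shown. Capitals mark matches on either strand to 6 short motifs. They are the TATA box, spelled out as TATAAA, the ETS factors' site as CCGGAAG, the GC box as GGGCGG, the CAAT-type box as CCAAT, the E-box as CACGTG and the CRE as TGACGTCA.
Rrp1b, chr17:32035912-32036211, plus strand: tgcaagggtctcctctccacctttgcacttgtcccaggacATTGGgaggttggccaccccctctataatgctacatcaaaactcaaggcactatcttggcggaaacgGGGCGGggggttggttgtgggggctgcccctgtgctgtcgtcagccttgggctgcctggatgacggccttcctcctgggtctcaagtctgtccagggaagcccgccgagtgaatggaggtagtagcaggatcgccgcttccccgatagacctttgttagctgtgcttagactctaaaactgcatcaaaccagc
Ddx46, chr13:55634749-55635048, plus strand: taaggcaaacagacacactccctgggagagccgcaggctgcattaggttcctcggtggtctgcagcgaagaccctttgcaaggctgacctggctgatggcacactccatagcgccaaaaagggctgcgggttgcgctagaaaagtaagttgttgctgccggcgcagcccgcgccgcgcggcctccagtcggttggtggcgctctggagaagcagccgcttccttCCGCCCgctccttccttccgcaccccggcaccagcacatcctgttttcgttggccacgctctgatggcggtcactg
Hnrnph2, chrX:134600929-134601228, plus strand: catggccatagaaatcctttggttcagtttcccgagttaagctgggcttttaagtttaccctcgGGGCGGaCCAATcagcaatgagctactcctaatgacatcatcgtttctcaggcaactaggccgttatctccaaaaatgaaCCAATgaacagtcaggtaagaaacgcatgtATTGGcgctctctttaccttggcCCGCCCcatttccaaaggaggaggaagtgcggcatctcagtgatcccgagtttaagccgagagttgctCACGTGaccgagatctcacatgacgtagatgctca
Prpf19, chr19:10894981-10895280, plus strand: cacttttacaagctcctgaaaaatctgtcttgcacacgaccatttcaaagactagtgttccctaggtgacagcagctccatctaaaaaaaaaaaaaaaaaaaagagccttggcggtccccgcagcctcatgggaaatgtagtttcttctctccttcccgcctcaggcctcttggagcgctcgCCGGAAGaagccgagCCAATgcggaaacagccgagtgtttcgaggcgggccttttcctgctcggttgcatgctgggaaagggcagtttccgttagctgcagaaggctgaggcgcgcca
The 4 windows had no motif in common: Hnrnph2 held 6 matches, with CCAAT boxes, GC boxes and an E-box, Rrp1b held 2 and Ddx46 held 1, a GC box, while the ETS letters appeared in the Prpf19 window alone of these 4.

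Windows were found for 73 of the 80 member genes, and a gene counted as holding a motif where any of its windows did. The ETS letters stood in 31 of the 73 (42.5%), against 20.3% of the 4635 tested genes with a window and 9.93% of all 27025 genes of the table. With the first window of each gene alone, the shares were 41.1%, 18.6% and 9.12% in the same order. Among the families, 6 of 7 Sf3 genes and 10 of 21 Ddx genes held them, and 1 of 14 Hnrnp genes did. GC boxes were in 71.2% of member genes and 69.8% of tested genes, CCAAT boxes in 53.4% and 42.2%, TATA boxes in 12.3% and 9.9%, E-boxes in 11% and 12.3%, and CRE in 5.48% and 3.41%. CpG pairs were at more than 0.6 of the number that base composition predicts in 97.3% of member genes, against 76.6% of tested genes, by each gene's richest window. These 6 motifs were kept with their shares known, a match is no evidence of binding, and no overlap between motifs was removed.

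Heterogeneous nuclear ribonucleoproteins had the lowest median of the families. Their 19 probe sets had a median log2 difference of -0.30, from -0.62 to 0.32, where the median of all tested probe sets was -0.04. At an unadjusted p under 0.05, 11 of the 19 were lower at 42 weeks (57.9%, against 9.67% of all probe sets) and 0 were higher (against 5.04%). The family median was -0.39 against the AJ arrays and -0.14 against LZ2 and LZ3, 2 values that share the 42-week arrays. On single arrays, the median of the family relative to the 12-array level of each probe set was 0.14, -0.03, -0.25 and -0.02 on LZ22 to LZ25 and -0.07, -0.11 and -0.23 on LZ61 to LZ63, against 0.31, 0.13 and 0.29 on the AJ arrays and 0.10 and -0.01 on LZ2 and LZ3. The AJ arrays thus stood high, except that LZ22 at 0.14 reached AJ2 at 0.13. Both LZ2 and LZ3 lay within the range of the later lungs. The AJ arrays were also those with the highest Actb 3′ to 5′ ratio, though not with a high Gapdh ratio, and the lowest lung marker sums, and the part of these in the result was not tested.

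**Figure D3:**
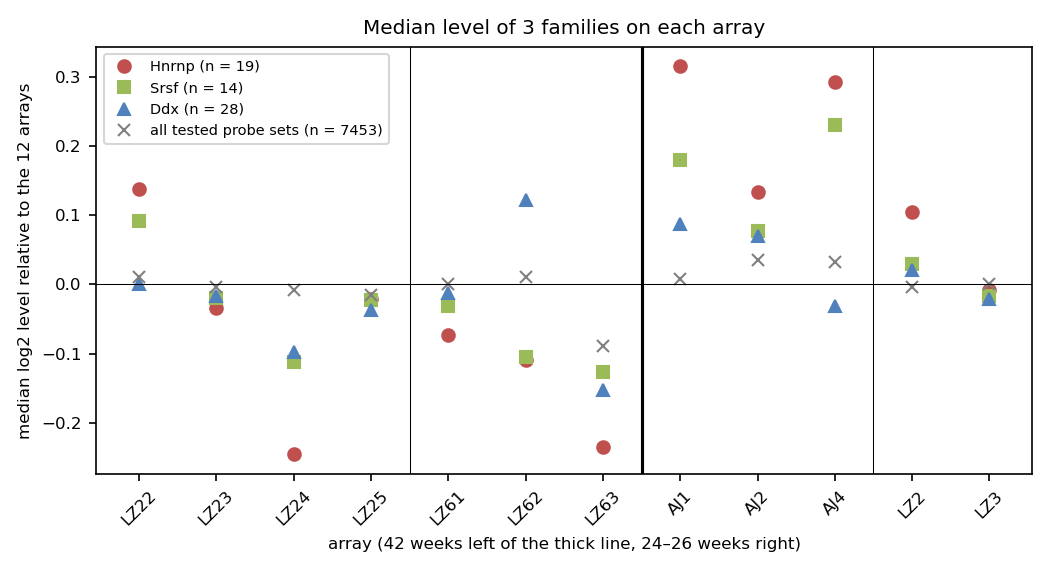
Median log2 level of the Hnrnp, Srsf and Ddx probe sets and of all tested probe sets on each array (y axis, each probe set relative to its own median over the 12 arrays), with 42 weeks left of the thick line. The Hnrnp medians run from -0.25 on LZ24 to 0.31 on AJ1, while those of all tested probe sets stay between -0.09 and 0.03.

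No hnRNP probe set passed 5% false discovery, and the values of single genes follow. Hnrnpll, which controls splicing of Cd45 in lymphocytes, read 552.4 to 843.8 with a median of 608.8 at 42 weeks, against 1123.7, 1075.7, 1048.5, 743.6 and 784.4 at 24 to 26 weeks. The AJ arrays were above every other array, and LZ22 at 843.8 exceeded LZ2 and LZ3. Its log2 difference was -0.54 (standard error 0.14, limma adjusted p = 0.104). The 4 T cell markers summed to 954.5 to 1565.2 at 42 weeks and 845 to 1097.8 at 24 to 26 weeks, and their part in the Hnrnpll result was not tested.

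Hnrnpdl, a relative of Hnrnpd that binds AU-rich RNA, was low at 42 weeks in both usable probe sets. Its brighter one, 96083_s_at, read 1883.3 to 2373.4 with a median of 2101.0 at 42 weeks, against 2800.0, 2402.4, 2389.4, 2615.7 and 2522.1 at 24 to 26 weeks. The groups stood apart by a small step, between LZ22 and AJ4, and the log2 difference was -0.29 (standard error 0.09, limma adjusted p = 0.156). Against LZ2 and LZ3 it was -0.30, close to the -0.28 against the AJ arrays. The dimmer one, 96084_at, had a log2 difference of -0.47 (limma adjusted p = 0.198), with -0.67 against the AJ arrays and -0.16 against LZ2 and LZ3.

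Some other hnRNPs that were lower at 42 weeks, picked after their values were seen, lay in the same range of differences. Hnrnpc, which sorts RNAs by length and blocks cryptic exons, averaged 288 ± 54.1 at 42 weeks and 407 ± 88.3 at 24 to 26 weeks (SD, n = 7 and 5), a log2 difference of -0.49 (limma adjusted p = 0.214). Hnrnpu, a nuclear matrix protein that binds chromatin and RNA, averaged 160 ± 39.7 and 237 ± 41.3 in the same order, with a difference of -0.59 (limma adjusted p = 0.201). For Hnrnpk, which binds C-rich RNA and DNA, the difference was -0.39 (0.263), made of -0.57 against the AJ arrays and -0.13 against LZ2 and LZ3. Hnrnph1, the autosomal counterpart of Hnrnph2, differed by -0.31 (0.154), with -0.33 and -0.29 against the same sets. Positive differences were those of Hnrnpl (0.32), Hnrnpul2 (0.28 in 104296_at and 0.11 in 104609_at), Hnrnpm (0.14) and Hnrnpd (0.03). Their limma adjusted p ran from 0.402 to 0.953. The other 14 of the 19 hnRNP probe sets had negative differences.

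**Figure D4:**
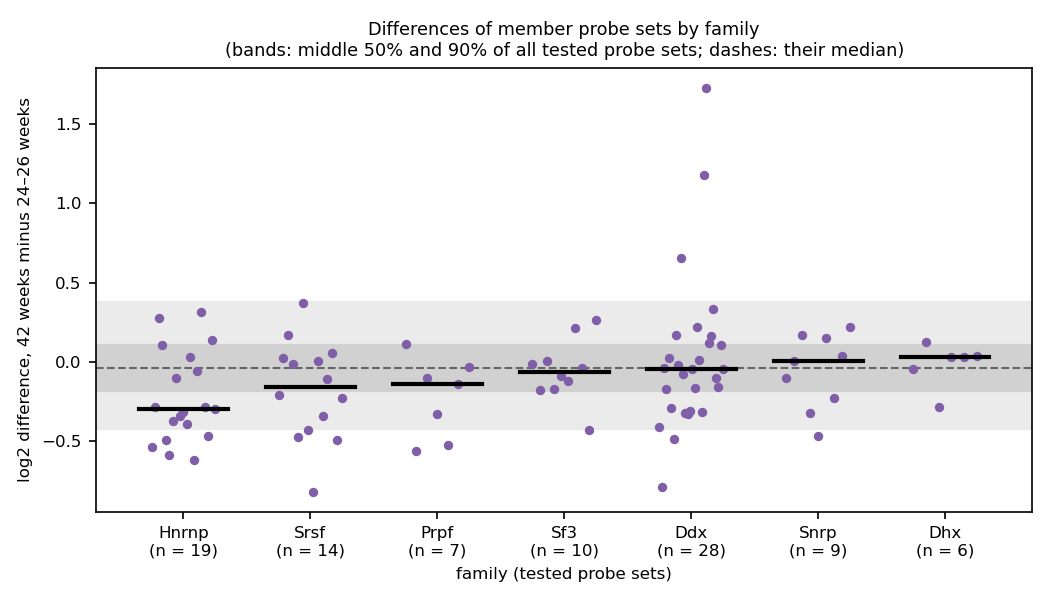
Log2 difference, 42 weeks minus 24 to 26 weeks (y axis), of each tested probe set by family, with a thick bar at the family median; bands span the middle 50% and 90% of all tested probe sets and the dashed line is their median. The Hnrnp median lies at -0.30 and the Ddx family has the only values above 1, both from Ddx6.

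SR proteins had a median log2 difference of -0.16 over 14 probe sets, from -0.82 to 0.37, with 5 lower (35.7%, against 9.67% of all probe sets) and 1 higher (7.14%, against 5.04%) at an unadjusted p under 0.05. Srsf1, the founding SR protein, was low at 42 weeks in both of its usable probe sets. Probe set 160539_at read 172.4 to 343.0 with a median of 215.4 at 42 weeks, against 340.7, 512.1, 553.7, 323.4 and 331.2 at 24 to 26 weeks. Only LZ23 at 343.0 reached into the earlier group. Its log2 difference was -0.82 (standard error 0.20, limma adjusted p = 0.101). Probe set 104586_at read 160.7 to 243.2 with a median of 207.1 at 42 weeks, against 322.4, 251.8, 298.8, 312.9 and 259.8 at 24 to 26 weeks, with no overlap and a difference of -0.48 (standard error 0.14, limma adjusted p = 0.150). On this probe set the AJ arrays and LZ2 and LZ3 stood at one level, with -0.49 and -0.46 for 42 weeks against each.

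Srsf2, an SR protein that binds exonic enhancers, gave unlike answers. Its probe set 95791_s_at read 1075.2 to 1542.9 with a median of 1249.0 at 42 weeks, against 1629.1, 1521.2, 1763.9, 1507.8 and 1496.3 at 24 to 26 weeks, a log2 difference of -0.34 (standard error 0.10, limma adjusted p = 0.151). LZ22 alone at 42 weeks reached into the earlier group. The brighter 94017_s_at averaged 5763 ± 408 at 42 weeks and 5817 ± 1034 at 24 to 26 weeks (SD, n = 7 and 5), a difference of 0.00. Srsf10 split in a like manner, with -0.49 for 98048_at (limma adjusted p = 0.212) and 0.17 for 102046_at (0.577). Srsf4 was the SR gene with the largest positive value, 751 ± 132 at 42 weeks against 577 ± 57.2 at 24 to 26 weeks (SD, n = 7 and 5), a difference of 0.37 for 104754_at (limma adjusted p = 0.213). The other usable Srsf4 probe set, 102093_f_at, averaged 245 ± 55.8 at 42 weeks and 245 ± 37.5 at 24 to 26 weeks. Its difference was -0.015 (limma adjusted p = 0.978). Srsf10 and Srsf4 were picked after their values were seen.

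RNA helicases of the Ddx type had a median log2 difference of -0.05 over 28 probe sets, with 4 lower (14.3%) and 2 higher (7.14%) at an unadjusted p under 0.05, shares near the 9.67% and 5.04% of all probe sets. Both of the higher ones belong to Ddx6, a helicase of processing bodies that represses translation and helps remove caps from messages. Its probe set 93965_r_at read 1427.1, 531.1, 751.4, 1194.8, 1553.5, 1219.2 and 1330.2 at 42 weeks, against 235.1, 181.2, 156.2, 800.3 and 693.4 at 24 to 26 weeks. The AJ arrays were far below all others, and LZ2 and LZ3 lay inside the range of the later lungs. The log2 difference was 1.73 (standard error 0.46, limma adjusted p = 0.145), made of 2.52 against the AJ arrays and 0.54 against LZ2 and LZ3. The probe set 93964_s_at differed by 1.18 (limma adjusted p = 0.207), with 1.71 and 0.38 against the same sets. The third, 96731_at, averaged 1177 ± 52.1 at 42 weeks and 1102 ± 140 at 24 to 26 weeks (SD, n = 7 and 5), a difference of 0.10 (limma adjusted p = 0.635). Ddx6 was the member gene whose probe sets differed most, by 1.62, and the suffixes _r_at and _s_at mark probes chosen under relaxed rules or shared between transcripts.

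**Figure D5:**
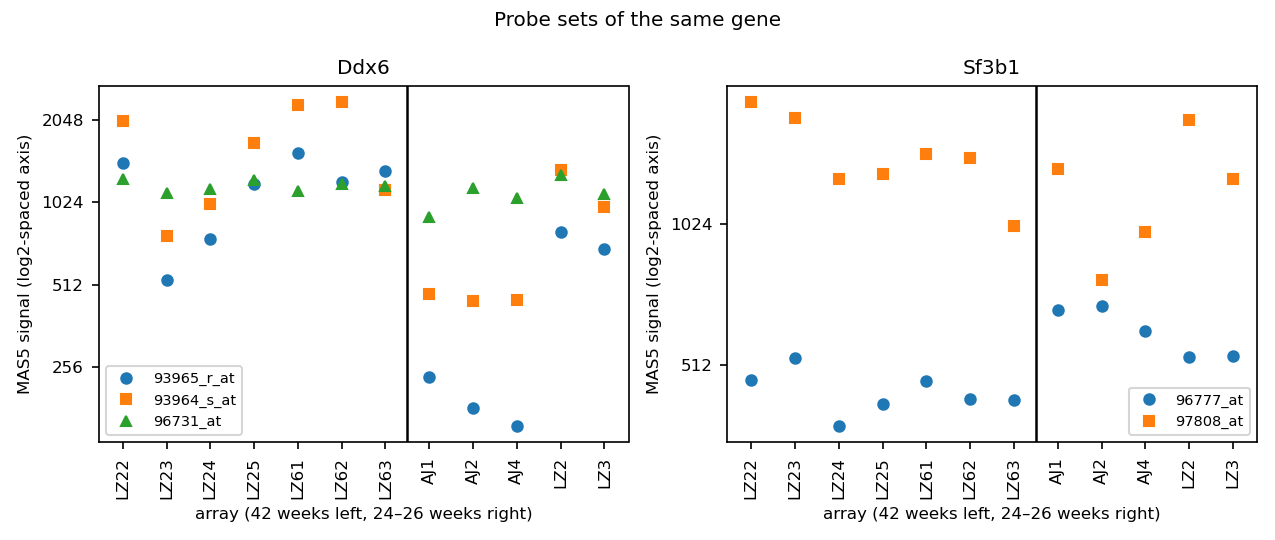
MAS5 signal (y axis, spaced as log2) of the 3 Ddx6 and the 2 Sf3b1 probe sets on each array, with 42 weeks left of the line. Ddx6 probe sets 93965_r_at and 93964_s_at drop on AJ1, AJ2 and AJ4 while 96731_at stays between 903.3 and 1289.6.

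The remaining Ddx probe sets that were lower at an unadjusted p under 0.05, picked after their values were seen, were those of Ddx18 and Ddx52, helicases of ribosome assembly. Ddx18 differed by -0.29 in 160492_at and by -0.41 in 100037_at (limma adjusted p = 0.237 and 0.269), and Ddx52 by -0.49 (0.282). The 6 Dhx probe sets had a median of 0.03, and none had an unadjusted p under 0.05. Dhx40, a little studied DEAH helicase, averaged 196 ± 35.1 at 42 weeks and 238 ± 37.3 at 24 to 26 weeks (SD, n = 7 and 5; limma adjusted p = 0.407). Dhx9, also called RNA helicase A, averaged 339 ± 45.5 and 312 ± 52.4 in the same order. Its log2 difference was 0.12 (95% interval -0.17 to 0.41, limma adjusted p = 0.714), and it was -0.10 against LZ2 and LZ3 alone.

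Components and assembly factors of the spliceosome had median log2 differences of -0.06 for 10 Sf3, 0.01 for 9 Snrp and -0.14 for 7 Prpf probe sets. At an unadjusted p under 0.05, 1 Sf3 (10%), 1 Snrp (11.1%) and 2 Prpf (28.6%) probe sets were lower, against 9.67% of all probe sets, and 0 were higher. The Snrp one, of Snrpb2, and the Prpf one of Prpf4b had means under 108 at 42 weeks and were tested only through the earlier group. Sf3b1, the largest subunit of the complex that clamps the branch point, read 380.0 to 529.7 with a median of 433.8 in probe set 96777_at at 42 weeks, against 673.1, 685.0, 605.9, 532.5 and 535.6 at 24 to 26 weeks. The groups met almost exactly between LZ23 and LZ2, and the log2 difference was -0.43 (standard error 0.11, limma adjusted p = 0.117). The brighter Sf3b1 probe set, 97808_at, averaged 1439 ± 285 at 42 weeks and 1221 ± 358 at 24 to 26 weeks (SD, n = 7 and 5), a difference of 0.26 (limma adjusted p = 0.524). Sf3a1, a subunit of the partner complex SF3a, averaged 428 ± 39.9 and 372 ± 63.8 in the same order, a difference of 0.21 (0.430).

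Snrpb2 encodes a protein of the U2 particle. Its probe set 92839_f_at read 59.8 to 137.6 with a median of 98.8 at 42 weeks. At 24 to 26 weeks it read 143.6, 131.4, 143.3, 148.2 and 146.2. The later arrays were spread widely around the level of 108 and the earlier ones lay close together. The later level of this probe set is not shown to be above background, so no size is given for its difference (limma adjusted p = 0.305). The other usable Snrpb2 probe set, 162026_r_at, averaged 145 ± 23.3 at 42 weeks and 189 ± 69.1 at 24 to 26 weeks (SD, n = 7 and 5). Its log2 difference was -0.32 (limma adjusted p = 0.497). Snrpc, a protein of the U1 particle, averaged 496 ± 59.7 at 42 weeks and 587 ± 108 at 24 to 26 weeks (SD, n = 7 and 5), a difference of -0.23 (limma adjusted p = 0.450). Prpf4b, a kinase that phosphorylates spliceosome proteins, read 66.3 to 130.1 with a median of 86.7 at 42 weeks, against 152.9, 149.9, 165.3, 138.8 and 87.6 at 24 to 26 weeks. Most of its later readings lay under 108 and are not shown to be above background, so no size is given here either (limma adjusted p = 0.269). The brightest member was Snrpb, a protein of the ring shared by most spliceosomal particles, at a mean of 7337 at 42 weeks and 6536 at 24 to 26 weeks, and signals of different probe sets cannot be ranked as RNA amounts. The most variable usable Snrp probe set carries the symbol of a pseudogene, Snrp1c-ps2. It read 134.5 to 893.6 at 42 weeks and 103.6 to 784.4 at 24 to 26 weeks.

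Agreement between probe sets of 1 gene bears on how far a single value can be read. Of the member genes, 19 had more than 1 usable probe set, and the median gap between their log2 differences was 0.24, against 0.20 for 893 genes of the whole array. The signs were opposite in 7 of the 19 (36.8%), against 42.2% for all such genes. Among the 95 usable member probe sets, 22 carry a suffix that marks shared or relaxed probes.

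Within the earlier time point, AJ arrays were compared with LZ2 and LZ3, a split that the labels do not explain. The AJ arrays were all run on 1 day and LZ2 and LZ3 on another, so title range and run day cannot be told apart. Of 93 family probe sets, 2 passed 5% false discovery (2.15%), where 186 of 7453 did (2.5%). Ddx6 93965_r_at fell to 191 ± 40.3 on AJ arrays, against 747 ± 75.6 on LZ2 and LZ3 (SD, n = 3 and 2), a log2 difference of -1.99 with a standard error of 0.34 (limma adjusted p = 0.0147). Sf3b2, a subunit of the branch point complex, rose to 557 ± 48.0 on AJ arrays in probe set 162091_f_at, against 309 ± 16.1 on LZ2 and LZ3 (SD, n = 3 and 2), a difference of 0.85 with a standard error of 0.16 (limma adjusted p = 0.0171). Both calls were lost without any 1 of AJ2, AJ4, LZ2 and LZ3. On AJ arrays minus LZ2 and LZ3, the median log2 difference was 0.19 for hnRNPs, 0.17 for Snrp and 0.12 for SR proteins. It was 0.08 for Ddx, 0.02 for Prpf, -0.05 for Sf3 and -0.17 for Dhx, and 0.04 for all tested probe sets. Of the hnRNP probe sets, 6 of 19 (31.6%, against 9.78% of all) were higher on AJ arrays at an unadjusted p under 0.05.

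Within the later time point, LZ61 to LZ63 were compared with LZ22 to LZ25. Here too each range was run on its own day, and the range and the day cannot be told apart. In limma, none of the 93 probe sets passed 5% false discovery, where 112 of 7453 did (1.5%), and 14 had an unadjusted p under 0.05 (15.1%, against 19.8%). The smallest adjusted p belonged to Prpf31, a protein of the U4/U6 particle, which averaged 236 ± 25.8 on LZ61 to LZ63 and 360 ± 55.4 on LZ22 to LZ25 (SD, n = 3 and 4; log2 difference -0.60, limma adjusted p = 0.0677). Prpf4b was brighter on LZ61 to LZ63, at 119 ± 15.7, than on LZ22 to LZ25, at 76.2 ± 8.39, a level not shown to be above background. Srsf1 160539_at, at 183 ± 15.5 and 272 ± 60.2, differed by -0.55 (0.162). Prpf31 was picked after its values were seen.

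Genes of the same pathways outside the families were counted with 1 probe set a gene, from lists chosen with earlier results known. Of 67 tested genes of the splicing machinery, 0 passed 5% false discovery between the time points, 9 were lower and 1 higher at an unadjusted p under 0.05 (against 9.67% and 5.04% of all probe sets, which are the shares to set beside the other lists too), and the median log2 difference was -0.06. Pnn, a splicing protein of nuclear speckles, averaged 158 ± 27.7 at 42 weeks and 256 ± 31.9 at 24 to 26 weeks (SD, n = 7 and 5), a difference of -0.70 (limma adjusted p = 0.0643). Tia1, which recruits the U1 particle, averaged 159 ± 15.9 and 242 ± 31.9 in the same order, a difference of -0.61 (0.0643). Of 31 nucleolar and ribosome assembly genes 0 passed, 4 were higher and 0 lower at an unadjusted p under 0.05, and the median was 0.02. The first of them was Ncl, nucleolin, at 3479 ± 235 at 42 weeks and 2842 ± 475 at 24 to 26 weeks (0.31, limma adjusted p = 0.226), and the next was Polr1d, a polymerase subunit (0.42, 0.257).

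None of 28 genes of export, 3′ end processing and decay passed in limma (1 higher and 3 lower at an unadjusted p under 0.05, median -0.03), led by Xrn1, an exonuclease (0.58, limma adjusted p = 0.226), and Cstf2, a cleavage factor (-0.37, 0.254). None passed among 12 reported partners of Rrp1b and Snw1 (0 higher and 2 lower, median -0.12), led by the corepressor Ski (-0.28, limma adjusted p = 0.172) and by Sipa1, a partner of Rrp1b in cultured cells (-0.35, 0.272). Of the cold-inducible RNA-binding proteins Cirbp alone was tested, at 0.02 (limma adjusted p = 0.968). Of 17 interferon response genes 0 passed between the time points and 0 had an unadjusted p under 0.05 (median -0.23), led by Irf9 (-0.31, limma adjusted p = 0.411) and Ifit2 (-0.34, 0.426), while 3 were higher on AJ arrays than on LZ2 and LZ3 past 5% false discovery, where 2.5% of all probe sets were called in either direction.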

How the data were processed

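RNA from lung was extracted with Trizol and labelled with biotin, per the labels' protocols, and hybridised to 12 MG_U74Av2 arrays. The authors deposited linear intensity values made with MAS5, per the submitters' processing notes. For the MAS5 version, its scaling target and the genome build, the sources used here give nothing. MAS5 subtracts mismatch signals, so low values are noisy, and array scaling hides a change shared by most transcripts. Run records, which the authors deposited for each array, served only to group arrays by run day.

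Of 12488 probe sets, 66 controls were removed. The platform annotation gave 10833 of the rest 1 gene symbol, 396 several and 1193 none here; 7 whose several symbols include a gene of these families were not members. Values were taken as log2 with no pseudocount. Probe sets with a mean under the 40th percentile (signal about 108) were left out, which left 7453. The fits used lmFit and eBayes (trend and robust options) of limma 3.58.1, with statmod 1.5.0 under R 4.3.3; p-values were two-sided and adjusted by Benjamini-Hochberg over the 7453. Every adjusted p in the text comes from these fits, apart from that of the exact permutation test, and values in brackets after a difference are adjusted p. A single fit with the 4 title ranges as groups gave the comparisons within a time point, and run day was a random block through duplicateCorrelation (correlation 0.227). The fit was also run on simulated data in which arrays were independent, which cannot show how it performs under the run-day correlation. The number of arrays limits the precision.

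Members, gene lists, naming rule and tests were all chosen with earlier results of these data known. By that rule the text names Rrp1b and Snw1, members past 5% false discovery, the 2 genes of each family with the smallest p between time points, members whose groups do not overlap, the gene whose probe sets differ most, and the 2 genes of each list with the smallest p. Alternatives were other normalizations, filters, a pseudocount, plain eBayes, array weights, blocks, subsets of arrays and each array left out.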

Additional observations from a re-analysis of the deposited data

Results flagged for a closer look

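In groups of 5 or 7 arrays, the highest or lowest log2 value was set against the others by Dixon's criterion. This takes its gap as a share of the range, and signals of single members are printed below on the linear scale. Of 58 groups of named members and family medians, 6 had an array far from the rest, where chance gives about 1 in 20. At 24 to 26 weeks, Prpf19 read 812.4 on LZ3, above the next value of 571.6. Snrpc read 396.4 on LZ2, below the next value of 606.9. Prpf4b read 87.6 on LZ3, below 138.8, and Snrpb2 92839_f_at read 131.4 on AJ2, below 143.3. The median log2 level of the Snrp family was 0.1257 on LZ22 among the arrays at 42 weeks, above the next value of 0.003935. It was -0.003935 on AJ1 among the arrays at 24 to 26 weeks, below the next value of 0.02035.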

How the results depend on the processing

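The count of 0 family probe sets past 5% false discovery between time points became 1 with quantile normalization or a 60th percentile filter, and 0 to 2 with each array left out (1 without LZ2 or LZ62, 2 without LZ3). It became 15 of 93 with array weights, where 550 of 7453 probe sets passed (7.38%), and 12 of 92 with the AJ arrays alone at 24 to 26 weeks, where 5.94% passed. Ddx46 passed under each of these settings, with an adjusted p from 0.00342 to 0.05, and its adjusted p reached 0.667 among its other alternatives. With title prefix as a block, which compares 42 weeks with LZ2 and LZ3, the count of family probe sets stayed at 0 of 93. The hnRNP median came to -0.14 with that block, and to -0.37 to -0.27 with each array left out. With that block, Dhx9 turned to -0.10 and Ddx6 96731_at to -0.018. The count of 2 for AJ against LZ2 and LZ3 became 11 with array weights, 5 without LZ22, LZ24 and LZ63, and 0 to 4 with each array left out (4 without LZ63). For LZ61 to LZ63 against LZ22 to LZ25 the count of 0 became 1 with equal array medians. The cause of these changes was not tested. Of 474 alternative values for 20 tested results on single probe sets, 443 kept their direction and side of the threshold. Apart from the 2 for AJ against LZ2 and LZ3, none of these results passed in the main fit. Such a result counted as kept if it again did not pass in the same direction, whatever its size. Ddx6 93965_r_at counted as kept at 0.54 with title prefix as a block, against 1.73 in the main fit. The 443 is therefore no measure of stable sizes. No paired analysis was possible because the titles share no replicate numbers between the time points. The alternatives for hnRNPs were chosen after seeing the data. A probe set near a signal of 108 lies close to the filter level and is not shown to be above background, which limits Prpf4b and Snrpb2 92839_f_at.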
